A study of Mus musculus with 13 samples.

Results

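Chromatin accessibility around 9 transcription factor genes of the limb mesenchyme was compared between limb and brain, along the limb, and between genotypes. The genes were Prrx1, Prrx2, Shox2, Alx1, Alx4, Msx1, Msx2, Twist1 and Hand2, and a region belonged to a gene when its strongest summit lay within 100 kb of the gene body. This rule gave 1894 of the 1360887 regions called in 13 libraries. The regions of 12 libraries merged into 320 regions near the 9 genes, of 264389 in the genome. Cells came from mouse embryos at E12.5 of the B6CBAF1 background, 50000 per library, and were profiled by ATAC-seq, in which the Tn5 transposase cuts open chromatin. Wild-type (wt) embryos and embryos homozygous for allele 542 gave 3 tissues, the distal forelimb or DFL, the proximal part of the same limb or PFL, and the forebrain or FB, with 2 replicate libraries for each genotype and tissue, each from pooled embryos. Allele 542, written II1TDOM 542 in the labels, carries in the T-DOM of the HoxD locus on chromosome 2 an extra copy of the distal limb enhancer II1 with an HBB promoter and a LacZ reporter. No animal received a treatment, and all groups shared the stage and the background. An additional wt DFL library, which comes from an earlier sample, was kept out of the comparisons.

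The 9 genes encode proteins of a pair of DNA-binding families. PRRX1, PRRX2, SHOX2, ALX1 and ALX4 have homeodomains related to the paired class, and MSX1 and MSX2 have homeodomains of the Msh class that mostly act as repressors. TWIST1 and HAND2 are basic helix-loop-helix (bHLH) proteins, which bind E-boxes as dimers with E proteins such as TCF3, TCF4 and TCF12. In the limb bud, PRRX1 and PRRX2 mark the lateral plate mesenchyme and support skeletal growth, TWIST1 keeps the mesenchyme undifferentiated, HAND2 acts in the posterior bud upstream of Sonic hedgehog, SHOX2 patterns the proximal skeleton, ALX4 restrains posterior signals at the anterior margin, and MSX1 and MSX2 respond to BMP signals at the distal tip. ALX1, like several of the others, is best known in the mesenchyme of the face. In GENCODE M21 on mm10 (GRCm38), the gene bodies are chr1:163245119-163313710 for Prrx1, chr2:30834972-30881251 for Prrx2, chr3:66971727-66981771 for Shox2, chr10:102998707-103030215 for Alx1, chr2:93642384-93681339 for Alx4, chr5:37820485-37824583 for Msx1, chr13:53466884-53473074 for Msx2, chr12:33957671-33959829 for Twist1 and chr8:57320983-57324633 for Hand2.

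Depth, estimated from the deposited values, was 37.5 to 54.5 M (mega) tags in the forelimb libraries and 51.4 to 70.7 M in the FB libraries. Of the regions called in a library, 0.151% to 0.161% lay near the 9 genes in the forelimb and 0.102% to 0.107% in FB. That was 152 to 185 regions in DFL, 134 to 175 in PFL and 97 to 112 in FB, so the FB libraries held the fewest although 3 of them were deeper than any forelimb library. Marker genes were checked by the number of a library's 50000 strongest regions within 100 kb. Hoxd13 and Hoxa13 together, markers of the distal limb, had 24 to 30 such regions in DFL, 22 to 25 in PFL and 7 to 11 in FB. Among markers of the forebrain, Emx2 had 3 to 7 in the forelimb and 7 to 12 in FB, Dlx2 had 7 to 11 and 9 to 13, and Six3 had 5 to 7 in both. Meis1 and Meis2, markers of the proximal limb, had 19 to 21 in DFL and 17 to 23 in PFL and did not separate the limb tissues by this measure, and they had 32 to 39 in FB. All libraries are bulk samples, in which fewer cells of a type and less open chromatin per cell cannot be told apart.

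Sequence around the summit is shown for 7 of the regions on which the comparisons turn. They are the regions with the largest difference in each of 4 directions (forelimb over FB, FB over forelimb, DFL over PFL and PFL over DFL), a region open in DFL and FB but not PFL, a region called only in FB, and a forelimb region of Alx1. Each sequence is the 200 bp of the GRCm38 plus strand centred on the strongest summit. Capitals mark 6-base matches on either strand to TAATTA, a homeodomain site, or to the E-box CATCTG, and, in the Alx1 region 29.0 kb downstream of the 5′ end, also the TAAT that lies 4 bases from the E-box. A sequence without capitals holds no such match. Distances are from the 5′ end of the named gene along its strand.
Prrx2, 30.1 kb downstream, largest forelimb over FB, chr2:30864932-30865131: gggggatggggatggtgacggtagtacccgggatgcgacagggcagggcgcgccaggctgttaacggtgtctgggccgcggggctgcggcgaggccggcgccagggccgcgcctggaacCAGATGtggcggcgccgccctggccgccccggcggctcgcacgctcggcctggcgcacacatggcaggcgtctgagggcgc
Shox2, 55.1 kb upstream, largest FB over forelimb, chr3:67036766-67036965: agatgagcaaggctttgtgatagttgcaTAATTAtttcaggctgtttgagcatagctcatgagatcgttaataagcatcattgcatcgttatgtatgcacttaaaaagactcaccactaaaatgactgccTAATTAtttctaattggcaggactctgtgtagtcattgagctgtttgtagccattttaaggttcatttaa
Hand2, 63.0 kb upstream, largest DFL over PFL, chr8:57257918-57258117: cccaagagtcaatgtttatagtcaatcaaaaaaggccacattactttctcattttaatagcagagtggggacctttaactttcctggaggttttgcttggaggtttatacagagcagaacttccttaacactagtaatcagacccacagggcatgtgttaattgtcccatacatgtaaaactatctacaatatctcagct
Alx1, 42.2 kb downstream, largest PFL over DFL, chr10:102987913-102988112: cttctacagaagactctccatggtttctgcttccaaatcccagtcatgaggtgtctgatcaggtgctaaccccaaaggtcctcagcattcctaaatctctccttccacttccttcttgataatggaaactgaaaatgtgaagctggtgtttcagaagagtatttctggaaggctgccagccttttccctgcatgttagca
Msx1, 71.0 kb upstream, open in DFL and FB, chr5:37895514-37895713: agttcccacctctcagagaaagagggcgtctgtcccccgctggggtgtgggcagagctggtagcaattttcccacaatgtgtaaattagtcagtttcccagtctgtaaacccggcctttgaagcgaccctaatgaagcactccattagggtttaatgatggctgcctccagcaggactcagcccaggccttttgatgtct
Msx2, 63.0 kb upstream, called only in FB, chr13:53536000-53536199: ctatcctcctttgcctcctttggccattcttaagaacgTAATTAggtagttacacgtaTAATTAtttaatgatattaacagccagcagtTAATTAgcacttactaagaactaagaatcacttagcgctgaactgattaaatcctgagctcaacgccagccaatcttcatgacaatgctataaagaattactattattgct
Alx1, 29.0 kb downstream, E-box beside TAAT, chr10:103001080-103001279: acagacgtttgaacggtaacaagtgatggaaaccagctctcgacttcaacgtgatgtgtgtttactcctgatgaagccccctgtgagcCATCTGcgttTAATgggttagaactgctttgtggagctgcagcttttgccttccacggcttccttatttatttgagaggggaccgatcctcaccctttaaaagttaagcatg

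The first comparison asked how many strong regions each gene has in the forelimb and in FB. Prrx1, Twist1, Hand2, Shox2, Alx1 and Alx4 had more strong regions in the forelimb, and no gene had more in FB. A strong region is one of the 50000 strongest of its library by −log10 q, so that all lists had equal length. In the order wt 1, wt 2, 542 1 and 542 2, which is kept for values per library throughout, Hand2 had 13, 12, 15 and 14 strong regions in DFL, PFL had 11, 11, 9 and 14, and FB had 4, 5, 4 and 3. Prrx1 had 9, 8, 11 and 10 in DFL, whereas PFL had 10, 12, 9 and 10, and FB had 5, 4, 5 and 4. For both genes every forelimb library lay above every FB library. Alx4 had 4 to 8 in the forelimb libraries and 1 in each FB library, Twist1 had 3 to 6 against 1 in each, and Alx1 had 4 to 9 against 2 in each, again without overlap. Shox2 had 4 to 6 against 3 to 4, so that its groups touched. The share of all genes whose forelimb and FB libraries do not overlap was not taken.

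Each difference was tested with a two-sided exact permutation test over the 12 libraries, adjusted by Benjamini-Hochberg over 20402 protein-coding genes. The mean was 12.4 ± 2 (SD, n = 8) in the forelimb and 4 ± 0.816 (n = 4) in FB for Hand2, 9.88 ± 1.25 and 4.5 ± 0.577 for Prrx1, 5.88 ± 1.55 and 1 for Alx4, and 3.88 ± 1.13 and 1 for Twist1 (adjusted p = 0.0145 each, exact permutation test). It was 6.25 ± 1.83 and 2 for Alx1 and 5 ± 0.535 and 3.25 ± 0.5 for Shox2 (adjusted p = 0.0242 each, exact permutation test). Thus 6 of 9 genes passed with more regions in the forelimb, where 10.7% of all genes did, and 0 of 9 passed with more in FB, where 14.0% of all genes did. The remaining 3 genes did not pass. Prrx2 had 16.6 ± 2.07 strong regions in the forelimb and 14.2 ± 1.5 in FB (adjusted p = 0.198, exact permutation test), Msx1 had 8.62 ± 2.72 and 5.5 ± 0.577 (adjusted p = 0.163), and Msx2 had 6.5 ± 2.07 and 5 ± 0.816 (adjusted p = 0.447). The list length changed some of these calls. With the 20000 strongest regions, 3 of the 9 genes passed, Twist1, Alx1 and Alx4 (adjusted p = 0.0199 each, exact permutation test), and Prrx1 turned direction, with forelimb minus FB at -0.25 regions (adjusted p = 0.903). With all deposited regions, 4 genes passed, Prrx1, Hand2, Alx1 and Alx4 (adjusted p = 0.0203 each, exact permutation test), Twist1 did not (adjusted p = 0.177), and Shox2 turned direction, at -1.12 regions (adjusted p = 0.625). Within 50 kb, Shox2 did not pass (adjusted p = 0.0565, exact permutation test) and Prrx2 did (adjusted p = 0.0287). Alx1 and Alx4 passed in each of these settings.

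**Figure D1:**
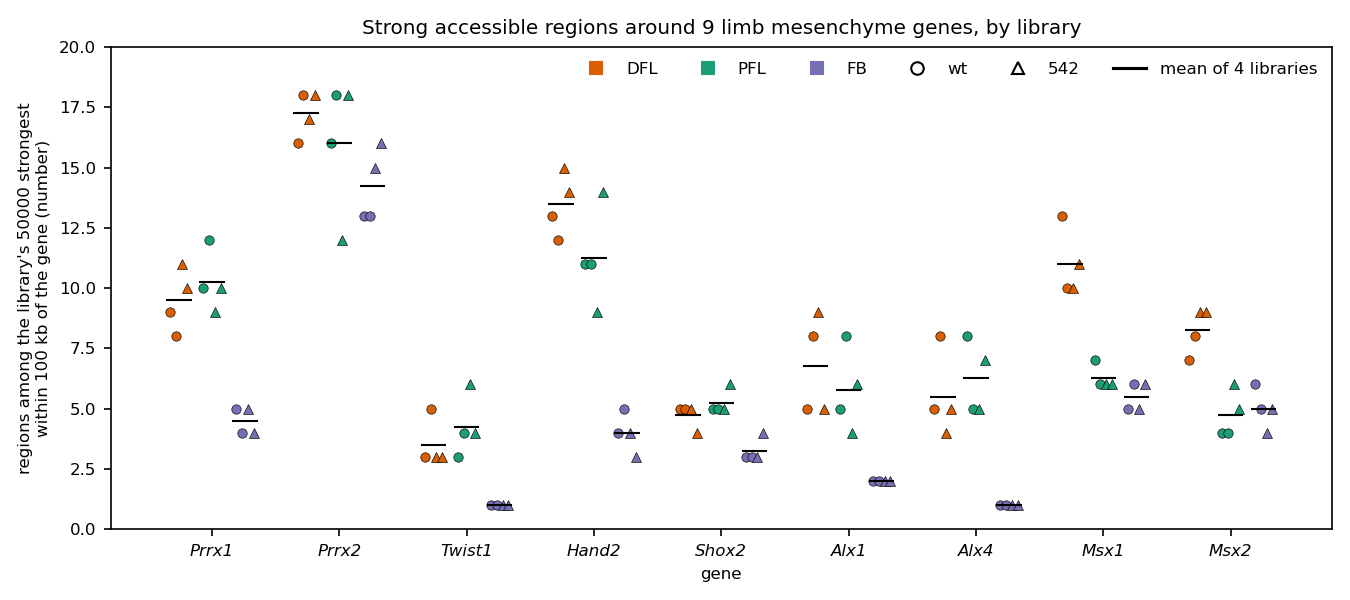
Number of each library's 50000 strongest regions within 100 kb of each gene, with circles for wt, triangles for 542, colours for tissue and bars for the mean of 4 libraries. Forelimb and FB libraries are apart for Prrx1, Twist1, Hand2, Alx1 and Alx4, and for Msx1 and Msx2 the DFL libraries lie above both the PFL and the FB libraries.

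The same numbers were compared along the limb. By strong regions within 100 kb, Msx1 and Msx2, the genes with BMP-responsive repressors, were the only members whose DFL and PFL libraries did not overlap. Msx1 had 13, 10, 10 and 11 strong regions in DFL and 7, 6, 6 and 6 in PFL. Msx2 had 7, 8, 9 and 9 in DFL and 4, 4, 6 and 5 in PFL. FB had 5 to 6 for Msx1 and 4 to 6 for Msx2, so that the PFL values were in the FB range except for 1 Msx1 library at 7. The p was 0.0286 for each before adjustment, the smallest that an exact permutation test of 4 against 4 libraries allows, and 2.97% of all genes reached it in the same direction and 3.24% in the opposite one. With all deposited regions counted, Msx1 kept this p and Msx2 had 0.143, while Twist1 and Shox2 reached 0.0286 in the opposite direction, with 4.5 and 2.25 fewer regions in DFL than in PFL (exact permutation test). After adjustment no gene of the genome passed (0.00%, lowest adjusted p = 0.46, exact permutation test). Summed over the 9 genes, DFL libraries had 76 to 83 strong regions, PFL libraries 62 to 76 and FB libraries 40 to 42.

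Single regions were then compared by their fold, the deposited ratio of the tags under a summit to the local background of the same library. Of the 320 regions, 110 were among the 50000 strongest of at least 2 libraries and were tested, and 210 were left out by this filter. The test was limma on the log2 fold, centred between libraries and adjusted by Benjamini-Hochberg over 87697 regions, and a library without a call received its 1st percentile of fold. Of the 110 regions, 71 (64.5%) were higher in the forelimb, where 44.1% of all tested regions were, and 18 (16.4%) were higher in FB, where 29.9% were. Of the 71, 8 did not pass under 1 or more of 3 other scalings. The median log2 difference of forelimb minus FB was 0.654 at the 110 regions and 0.104 over all tested regions. Because a region that is strong in 1 tissue alone passes the filter through that tissue, these counts describe the tested regions and not all 320. A region within 100 kb of a gene is not shown to act on it. Of all 320 regions, 22 (6.88%) were called in all 8 forelimb and no FB library, as were 3.80% of regions in the genome, and 10 (3.12%) were called in all FB and no forelimb library, as were 6.40%. The outermost regions inside the 100 kb lay 99.24 and 99.66 kb from Hand2 and Msx1 with a highest fold of 3.92 and 3.07, and the nearest outside lay 100.70 and 100.97 kb from Prrx1 and Prrx2 with 8.71 and 17.1.

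**Figure D2:**
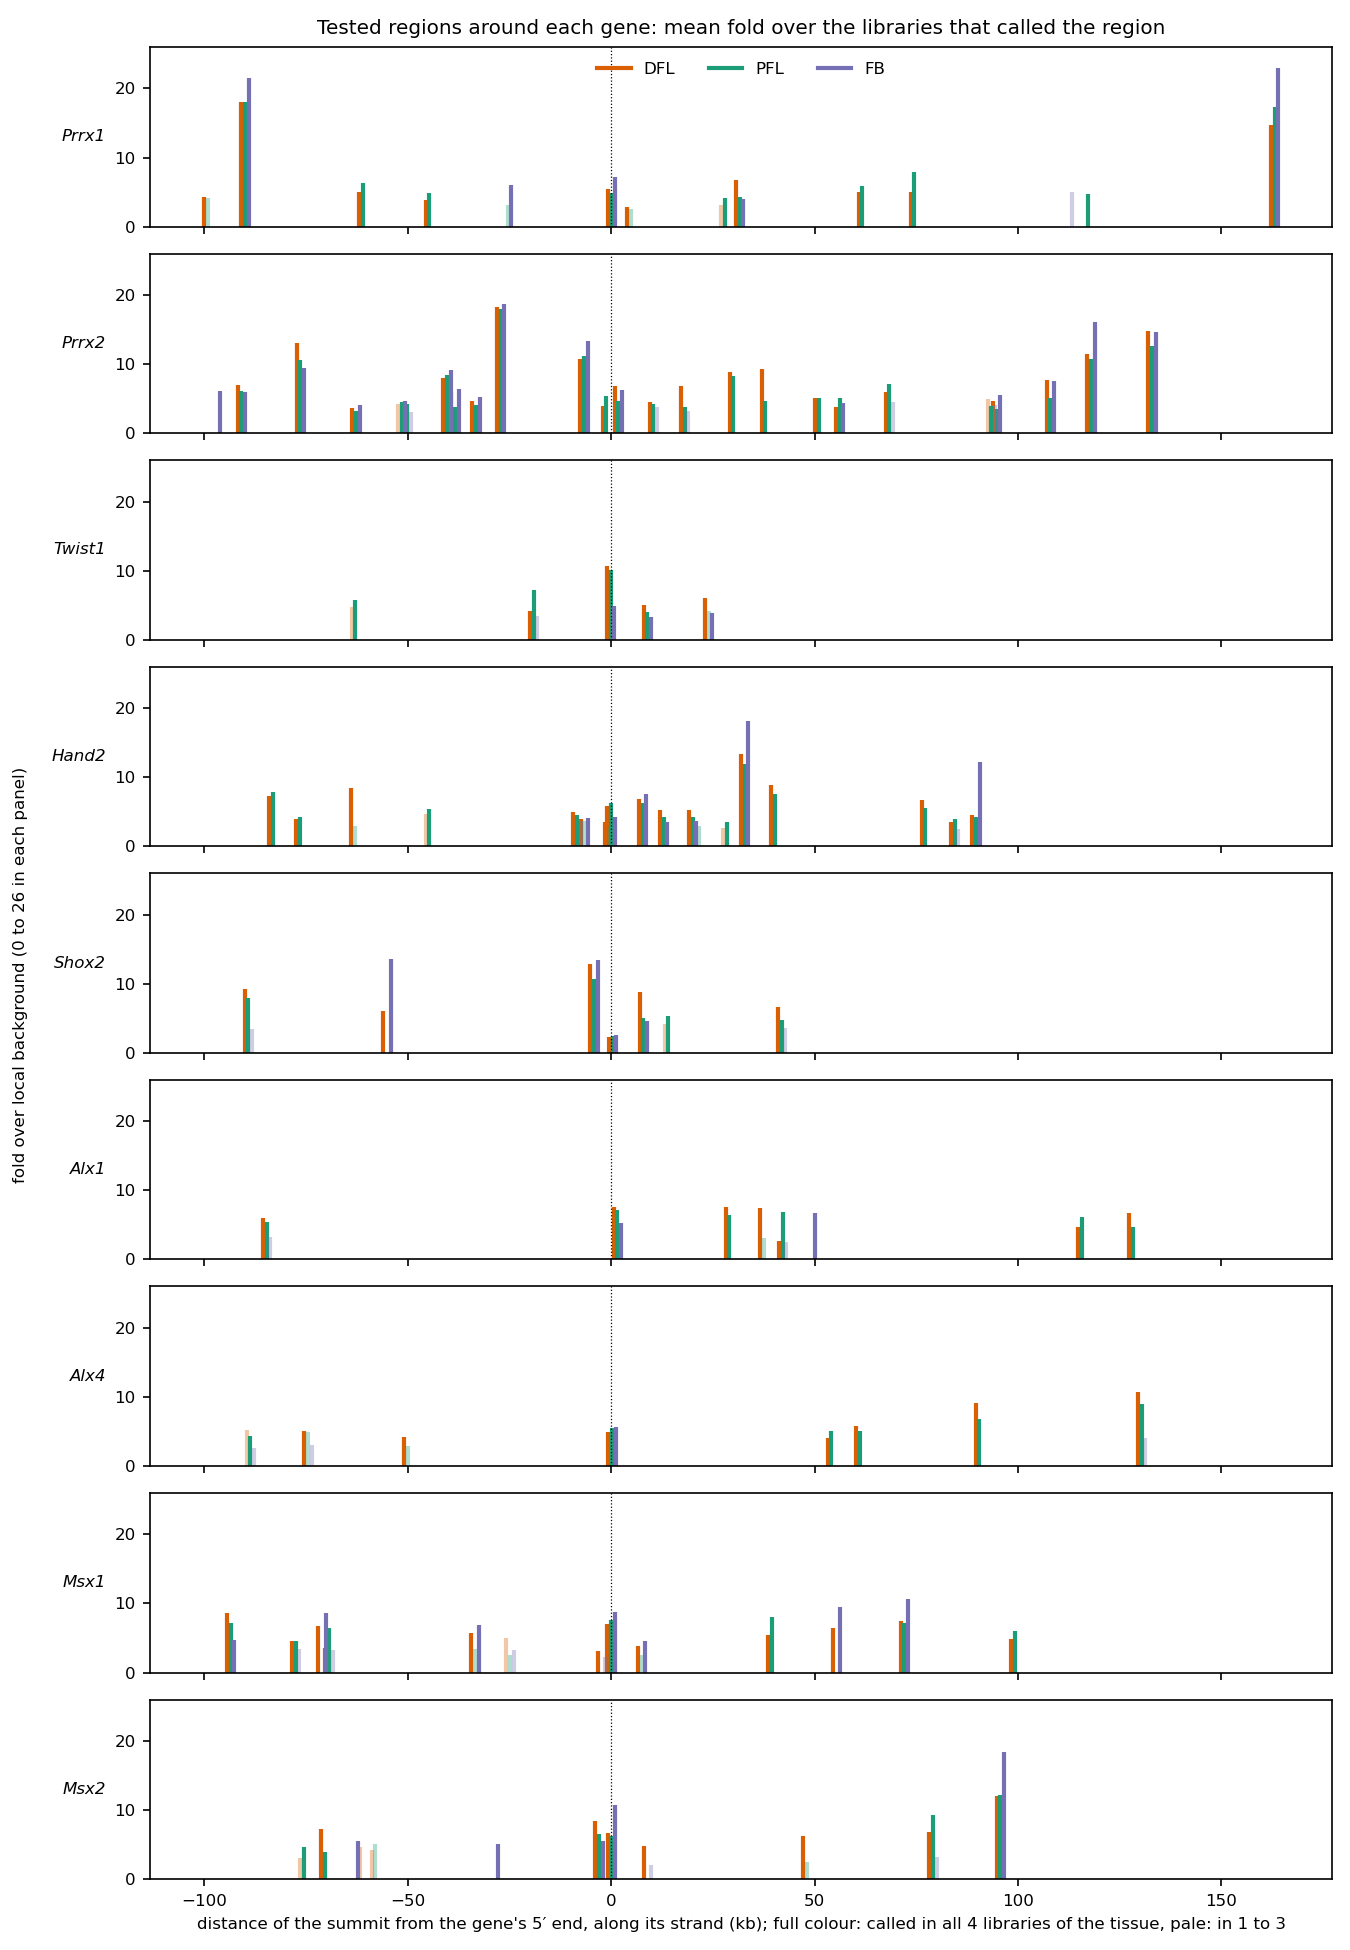
Mean fold over the libraries that called a region (vertical axis, fold over local background) against the distance of its summit from the 5′ end of the gene in kb, for the 110 tested regions, in pale colour where only 1 to 3 of the 4 libraries of a tissue called the region. Regions with DFL and PFL bars but no FB bar are spread over every locus, whereas at Msx1 and Shox2 some DFL and FB bars stand without a PFL bar.

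Among the paired-class genes, the strongest forelimb differences lay in introns and in flanking sequence. In Prrx2, whose protein overlaps in function with PRRX1, an intronic region at chr2:30864415-30865492, 30.1 kb downstream of the 5′ end, had a fold of 8.94, 9.51, 8.92 and 8.16 in DFL and 9.04, 8.89, 7.67 and 7.51 in PFL, and was called in no FB library. The forelimb values were close to each other in both tissues and both genotypes. Forelimb exceeded FB by 2.13 ± 0.095 (SE) on the log2 scale, the largest difference at the 9 genes (limma, adjusted p = 4.29e-08). As all FB values of this region were filled, the SE and p measure no replicate spread in FB. The spread is pooled over the 6 groups of genotype and tissue, and filled groups add little to it. The SE and p can therefore be too small, here and at each region below that has no call in a tissue. With a floor shared by all libraries, the difference of this region was 1.96. Its summit sequence, shown above, holds 1 CATCTG E-box, read on the minus strand. A neighbouring intronic region, 37.9 kb downstream at chr2:30872373-30873213, was also called in no FB library but was graded along the limb, with 10.1, 11, 7.37 and 8.5 in DFL and 4.31, 6.45, 4.61 and 3.48 in PFL (DFL minus PFL, log2 0.92 ± 0.16, limma adjusted p = 0.00118). The Prrx2 locus lies among other genes, and of its 25 tested regions 10 (40%) were higher in the forelimb and 2 (8%) in FB. Over all tested regions the shares were 44.1% and 29.9%, so Prrx2 had no excess of forelimb-higher regions. The larger FB excess was 97.0 kb upstream, at chr2:30737651-30738133, with 7.36, 5.53, 5.45 and 6 in FB and no call in the forelimb (log2 -1.19 ± 0.093, limma adjusted p = 9.26e-07). The strongest region, at the start of Ntmt1, had nearly equal folds, 18.2 ± 0.374 in DFL, 17.9 ± 0.781 in PFL and 18.6 ± 0.842 in FB (n = 4 each). It counted among the forelimb calls (log2 0.13, limma adjusted p = 0.00361), but without centring the difference was -0.045 (limma adjusted p = 0.344).

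At Prrx1, 9 of 14 tested regions (64.3%) were higher in the forelimb, against 44.1% of all tested regions. Another 4 (28.6%) were higher in FB, near the 29.9% of all tested regions. The largest forelimb difference was at an intergenic region 74.6 kb downstream of the 5′ end, chr1:163238878-163239913, with a fold of 5.27, 4.2, 6.27 and 4.15 in DFL and 8.2, 9.5, 8.12 and 5.59 in PFL and no call in FB (log2 1.65 ± 0.15, limma adjusted p = 2.37e-06). It was lower in DFL than in PFL by 0.72 on the log2 scale (SE 0.17, limma adjusted p = 0.00854), although the lowest PFL library and the highest DFL library overlapped. Another intergenic region, 117.3 kb downstream at chr1:163196076-163196895, was called in PFL alone, with 5.63 and 5.95 in wt and 3.77 and 3.6 in 542 (DFL minus PFL, log2 -1.06 ± 0.088, limma adjusted p = 1.76e-05). The start of Prrx1 itself was open in all libraries and went the other way. It had a fold of 5.38 ± 0.327 in DFL, 4.8 ± 1.21 in PFL and 7.25 ± 0.665 in FB (log2 -0.35 ± 0.13, limma adjusted p = 0.034), a call that held in 5 of 12 fits with 1 library left out. A region 25.4 kb upstream had a fold of 6.57, 4.73, 6.5 and 6.18 in FB and was called in 1 of 8 forelimb libraries, at 3.17 (log2 -1.11 ± 0.12, limma adjusted p = 1.20e-05). Within the gene, an intronic region 31.6 kb downstream was the only one higher in DFL, with 7.52, 6.42, 6.49 and 6.68 against 4.44, 6.12, 3.01 and 3.63 in PFL (log2 0.64 ± 0.15, limma adjusted p = 0.00814). The strongest region of the locus was the start of Gorab, at chr1:163403319-163404275, which did not pass (limma adjusted p = 0.188). 

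At Alx1 and at Alx4, 7 of 8 tested regions each were higher in the forelimb, against 44.1% of all tested regions. In FB, 1 and 0 were higher, against 29.9%. The filter left out 22 of 30 regions at Alx1 and 44 of 52 at Alx4. A region passes it through the tissue where the region is strong. Of the 30 and 52, 4 (13.3%) and 3 (5.77%) were called in all forelimb and no FB library, against 3.80% in the genome. The converse held for 1 and 0, against 6.40%. An intronic region of Alx1, 29.0 kb downstream at chr10:103000742-103001841, had a fold of 8.84, 6.37, 7.59 and 7.67 in DFL and 7.46, 6.63, 5.73 and 5.99 in PFL and was not called in FB (log2 1.84 ± 0.12, limma adjusted p = 2.36e-07). Its summit sequence, shown above, holds a CATCTG E-box 4 bases from a TAAT. Beyond the 3′ end of Alx1, a pair of intergenic regions under 5 kb apart had opposite patterns along the limb. The region 37.5 kb downstream, chr10:102992456-102993280, had 5.86, 7.81, 7.87 and 8.02 in DFL, was called in no wt PFL library and no FB library, and had 3.48 and 2.68 in 542 PFL (log2 1.42 ± 0.12, limma adjusted p = 2.20e-05). The region 42.2 kb downstream, chr10:102987766-102988444, had 2.64, 3.15, 2.54 and 2.61 in DFL and 7.11, 7, 6.07 and 7.1 in PFL (log2 -1.39 ± 0.12, limma adjusted p = 1.90e-05), the largest PFL excess at the 9 genes. A further region, 49.2 kb downstream, was called only in FB, at 6.19, 6.67, 6.69 and 7.08 (log2 -1.33 ± 0.084, limma adjusted p = 2.32e-07). These 3 adjoining regions were thus each strongest in another tissue.

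At Alx4, the regions with the largest forelimb differences lay downstream in the introns of Ext2, the neighbouring gene for a heparan sulfate synthesis enzyme. Regions 88.6, 74.5 and 50.0 kb upstream and 54.2 and 61.1 kb downstream were also higher in the forelimb, by less. The region 90.5 kb downstream, chr2:93732324-93733445, had 8.74, 11.5, 8.73 and 7.31 in DFL and 7.79, 5.85, 6.91 and 6.65 in PFL and was not called in FB (log2 2.00 ± 0.12, limma adjusted p = 2.00e-07). The region 130.4 kb downstream was the strongest of the locus, 10.7 ± 1.07 in DFL and 9.04 ± 1.1 in PFL, and FB had 4.44, 4.26 and 3.42 in 3 libraries and no call in the 4th (log2 1.67 ± 0.13, limma adjusted p = 8.46e-07). In contrast, the region in an exon of Alx4, 0.3 kb downstream of the 5′ end, had 4.9 ± 0.472 in DFL, 5.52 ± 0.401 in PFL and 5.63 ± 0.806 in FB and did not pass (log2 0.069 ± 0.11, limma adjusted p = 0.588). A weak region 0.2 kb upstream was called in 5 libraries, at up to 3.04, and was not tested. The only region of Alx4 higher in DFL lay 50.0 kb upstream, with 4.22 ± 0.35 in DFL and 3.26, 2.26 and 3.29 in 3 PFL libraries (log2 0.53 ± 0.15, limma adjusted p = 0.0203), a call that held in 8 of 12 fits with 1 library left out. At Alx1 the region nearest to the start was higher in the forelimb, at 7.62 ± 0.164 in DFL and 7.09 ± 1.05 in PFL against 5.22 ± 0.295 in FB (log2 0.67 ± 0.099, limma adjusted p = 0.000109). Alx4 lies on chromosome 2 beyond the insertion of allele 542, where coordinates of the mutant genome were shifted back by 4219 bp, and leaving them unshifted moved the counts between genotypes but none of the tissue counts by more than 1.5 times.

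At Shox2, 4 of 7 tested regions (57.1%) were higher in the forelimb and 1 (14.3%) in FB, against 44.1% and 29.9% of all tested regions. The largest differences lay inside Rsrc1, the neighbouring gene for a splicing factor. The start of Shox2, which is also annotated as a transcript start of Rsrc1, had a fold of 2.24 ± 0.39 in DFL, 2.37 ± 0.214 in PFL and 2.52 ± 0.5 in FB, the lowest among the starts of the 9 genes that were tested. An intronic region of Rsrc1, 89.2 kb upstream of Shox2 at chr3:67070321-67071589, had 7.4, 10.9, 9 and 9.81 in DFL, while PFL had 8.11, 8.11, 7.93 and 7.54, and FB had 3.62, 3.83 and 2.79 in 3 libraries with no call in the 4th (log2 1.65 ± 0.12, limma adjusted p = 7.16e-07). Another, 55.1 kb upstream at chr3:67036403-67037403, had 13.2, 13.1, 13.5 and 14.7 in FB, 6.15, 8.4, 5.35 and 4.15 in DFL, and no call in PFL. It was the region with the largest FB excess at the 9 genes (forelimb minus FB, log2 -1.70 ± 0.12, limma adjusted p = 4.56e-07), and DFL exceeded PFL by 1.24 ± 0.14 (limma adjusted p = 8.20e-05). Its summit sequence holds TAATTA at 2 places. An exonic region 7.9 kb downstream in Shox2 was likewise graded, with 10.1, 7.71, 8.12 and 9.18 in DFL, while PFL had 5.67, 5.4, 5.11 and 4.26 and FB had 4.29, 4.59, 4.92 and 4.35 (DFL minus PFL, log2 0.71, limma adjusted p = 0.00176). The opposite order was seen 14.1 kb downstream, with 5.33 ± 0.677 in PFL and 3.66, 4.61 and 4.34 in 3 DFL libraries (log2 -0.62 ± 0.15, limma adjusted p = 0.00966). The strongest region of the locus, at the main start of Rsrc1, did not pass (limma adjusted p = 0.849 for forelimb against FB and 0.13 for DFL against PFL).

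Distal and proximal forelimb were compared region by region, and the Msx loci held 9 of the 22 regions that were higher in DFL. Over the 9 genes, 22 of 110 tested regions were higher in DFL, where 13.8% of all tested regions were, and 12 (10.9%) were higher in PFL, where 14.6% were. Msx1 had 5 of the DFL regions (38.5% of its 13 tested) and Msx2 had 4 (33.3% of 12). Prrx2 also had 4, but this was 16% of its 25 tested regions, near the share of all tested regions. Prrx1 had the most PFL regions, 4 of 14 tested (28.6%). Without regard to strength, 10 of 320 regions (3.12%) were called in all 4 DFL and no PFL library, against 2.06% in the genome, and 5 of these lay at Msx1. Another 4 (1.25%, against 1.48%) were called in all PFL and no DFL library, and they lay at Prrx1 and Twist1, 2 at each.

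At Msx1, the distal regions with the largest difference were also open in FB. An intronic region of the noncoding gene Gm20052, 71.0 kb upstream of Msx1 at chr5:37895362-37896259, had 5.83, 6.85, 8.03 and 6.34 in DFL, no call in PFL, and 8.2, 7.98, 9.37 and 8.88 in FB. DFL exceeded PFL by 1.45 ± 0.12 on the log2 scale (limma, adjusted p = 2.07e-05), and the forelimb mean was below FB by 0.94 (limma, adjusted p = 1.62e-05). An intergenic region 55.4 kb downstream, chr5:37768837-37769744, had 7.03, 8.84, 5.16 and 4.9 in DFL, no call in PFL, and 10.9, 8.99, 9.74 and 8.17 in FB (DFL minus PFL, log2 1.36 ± 0.13, limma adjusted p = 3.43e-05). A region 33.5 kb upstream followed the same order, with 6.56, 6.54, 4.74 and 4.81 in DFL, 3.38 in 1 PFL library and no call in the others, and 6.35, 6.67, 7.01 and 7.49 in FB (DFL minus PFL, log2 1.04 ± 0.14, limma adjusted p = 0.000245). Together with the Shox2 region 55.1 kb upstream, the first and the second of these were the only 3 of 320 regions called in all DFL and all FB libraries and in no PFL library, a pattern of 0.369% of regions in the genome. No region had the converse pattern of PFL and FB without DFL, which 0.109% of regions had. This pattern was singled out after its values were seen. Over all tested regions, 18% of the DFL-higher ones were also higher in FB, and of the 22 near the 9 genes 5 were.

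A region under 2 kb from the first, 69.3 kb upstream of Msx1 and at a transcript start of Gm20052, had the opposite order. Its fold was 3.83, 4.1, 3.48 and 3.08 in DFL and 7.59, 5.39, 7.47 and 5.05 in PFL, and FB had 3.35 and 3.08 in wt and no call in 542 (DFL minus PFL, log2 -0.87 ± 0.14, limma adjusted p = 0.00108). The largest forelimb difference at Msx1 was intergenic, 39.5 kb downstream, with 7.33, 4.9, 3.69 and 5.85 in DFL, 8.25, 8.94, 6.29 and 8.45 in PFL and no call in FB (log2 1.73 ± 0.17, limma adjusted p = 4.74e-06). The start of Msx1 had 6.98 ± 0.622 in DFL, 7.54 ± 1.53 in PFL and 8.73 ± 0.985 in FB and passed neither comparison (limma, adjusted p = 0.485 for forelimb against FB and 0.458 for DFL against PFL). The region of the locus with the highest mean fold in the forelimb, 93.5 kb upstream, had 8.61 ± 0.568 in DFL, 7.15 ± 2.29 in PFL and 4.68 ± 0.585 in FB (log2 0.91 ± 0.14, limma adjusted p = 0.00013).

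At Msx2, the distal regions had at most 1 call in FB. An intronic region of Gm2762, 48.2 kb downstream at chr13:53424627-53425474, had 5.27, 6.83, 5.35 and 7.55 in DFL, 2.41 in 1 PFL library and no other call (DFL minus PFL, log2 1.30 ± 0.13, limma adjusted p = 5.25e-05). A region 8.9 kb downstream, just beyond the 3′ end of the gene, had 4.86, 5.04, 4.6 and 4.68 in DFL, no call in PFL and 2.1 in 1 FB library (log2 0.96 ± 0.088, limma adjusted p = 2.76e-05). In both, the lowest DFL value was above the highest value of the other tissues. FB had regions of its own, 63.0 kb upstream at 5.37, 4.96, 6.08 and 5.54 and 28.7 kb upstream at 6.07, 5.67, 4.31 and 4.46, with no call in any forelimb library (limma adjusted p = 8.39e-07 and 1.13e-06). The summit sequence of the former, shown above, holds TAATTA at 3 places. The start of Msx2 was open everywhere and higher in FB, 10.7 ± 1.57 against 6.71 ± 0.568 in DFL and 6.22 ± 1.79 in PFL (log2 -0.57 ± 0.16, limma adjusted p = 0.00721). The strongest region near Msx2, at the start of Sptlc1, was likewise higher in FB, 18.5 ± 2.97 against 12 ± 1.87 in DFL and 12.2 ± 1.5 in PFL (limma adjusted p = 0.00181). The largest forelimb excess lay 79.1 kb downstream, at the start of Gm2762, with 6.86 ± 1.43 in DFL, 9.22 ± 1.22 in PFL and 3.85, 2.79 and 2.77 in 3 FB libraries (log2 1.63 ± 0.17, limma adjusted p = 7.56e-06). An upstream region at chr13:53548379-53548848 was higher in PFL, at 4.5, 2.71, 5.15 and 6.18, with 1 call in DFL at 3.08 (log2 -0.88 ± 0.16, limma adjusted p = 0.00209).

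**Figure D3:**
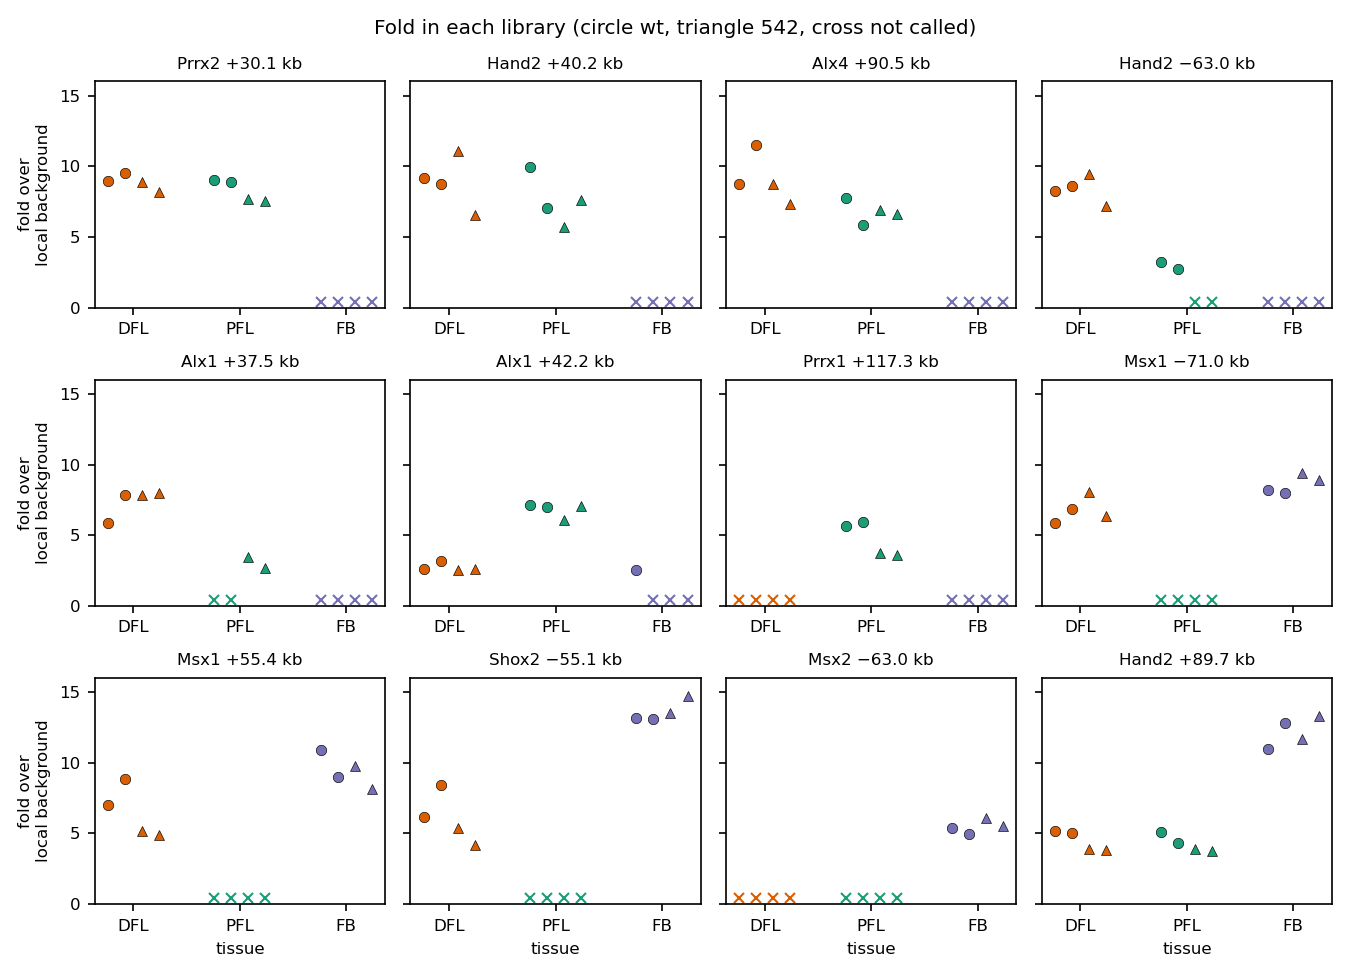
Fold over local background in each library at 12 regions, with distances in kb from the 5′ end of the gene (minus for upstream), circles for wt, triangles for 542 and a cross near 0 where the library had no call. The panels go from regions of both limb tissues (Prrx2 +30.1 kb) through DFL regions (Hand2 −63.0 kb), PFL regions (Prrx1 +117.3 kb) and regions of DFL and FB (Msx1 −71.0 kb) to FB regions (Msx2 −63.0 kb).

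Among the bHLH genes, all 5 tested regions of Twist1 were higher in the forelimb, as were 44.1% of all tested regions. The filter, which a region passes through the tissue where it is strong, left out 18 of the 23 regions of Twist1. Of the 23, 0 were called in all forelimb and no FB library, against 3.80% in the genome. The converse held for 1 (4.35%), against 6.40%. Of the starts of the 9 genes that were tested, that of Twist1 had the largest difference. The start, at chr12:33956715-33958842, had 10.1, 11.6, 10.8 and 10.4 in DFL, while PFL had 10.3, 8.8, 10.4 and 10.9, and FB had 5.05, 5.14, 4.77 and 4.57 (log2 1.27 ± 0.087, limma adjusted p = 3.86e-07). The limb tissues did not differ there (log2 0.024 ± 0.10, limma adjusted p = 0.875). A region 19.0 kb upstream was higher in PFL, with 7.51, 7.57, 6.49 and 7 against 4.98, 4.55, 3.32 and 3.59 in DFL, and FB had 2.41 and 4.46 in 2 libraries and no call in the others (DFL minus PFL, log2 -0.88 ± 0.20, limma adjusted p = 0.00654). The region 24.0 kb downstream was higher in DFL, with 5.21, 6.25, 6.82 and 6.04 against 3.86, 3.47 and 4.95 in 3 PFL libraries and 3.89 ± 0.321 in FB (DFL minus PFL, log2 0.69 ± 0.18, limma adjusted p = 0.0151). Of the 5 forelimb calls at Twist1, those 8.9 kb and 24.0 kb downstream did not pass under quantile normalization (limma, adjusted p = 0.109 and 0.396), and the latter passed under none of the 3 other scalings.

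At Hand2, 14 of 18 tested regions (77.8%) were higher in the forelimb and 2 (11.1%) in FB, against 44.1% and 29.9% of all tested regions. The region with the largest DFL excess at the 9 genes lay 63.0 kb upstream, at chr8:57257423-57258503, with 8.28, 8.62, 9.48 and 7.22 in DFL, 3.22 and 2.71 in wt PFL, and no call in 542 PFL or in FB (DFL minus PFL, log2 1.57 ± 0.13, limma adjusted p = 1.52e-05). All DFL values lay above all PFL values. In contrast, the region 83.1 kb upstream was even along the limb, with 7.59, 7.88, 7.74 and 5.85 in DFL and 7.35, 8.02, 7 and 8.81 in PFL and no call in FB (forelimb minus FB, log2 1.94, limma adjusted p = 2.86e-07). So was the region 40.2 kb downstream at chr8:57360873-57361834, with 9.19, 8.78, 11.1 and 6.57 in DFL and 9.92, 7.06, 5.74 and 7.59 in PFL (forelimb minus FB, log2 2.05 ± 0.17, limma adjusted p = 1.33e-06). PFL was higher at a weak region 28.5 kb downstream, with 3.02, 3.21, 3.83 and 3.82 against 2.64, 2.5 and 2.65 in 3 DFL libraries (log2 -0.51 ± 0.088, limma adjusted p = 0.00141). The start, shared by Hand2 and the antisense gene Hand2os1, was moderately higher in the forelimb, 5.8 ± 0.652 in DFL and 6.34 ± 1.07 in PFL against 4.21 ± 0.515 in FB (log2 0.70 ± 0.13, limma adjusted p = 0.000456).

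A Hand2 region 89.7 kb downstream, in an intron of Gm34099, was higher in FB. FB had 11, 12.8, 11.7 and 13.3, DFL had 5.2, 5.02, 3.87 and 3.82, and PFL had 5.11, 4.34, 3.88 and 3.74 (log2 -1.31 ± 0.099, limma adjusted p = 7.30e-07). All forelimb libraries called it. The region with the highest mean fold near Hand2, 32.8 kb downstream, was open in every library and also higher in FB, 18.2 ± 2.29 against 13.3 ± 0.568 in DFL and 11.9 ± 0.503 in PFL (log2 -0.35 ± 0.072, limma adjusted p = 0.00118). Of the 18 regions higher in FB, 7 were called in all 12 libraries and 5 in no forelimb library, and of the 71 higher in the forelimb, 12 were called in all 12 and 38 in no FB library. Such calls were not counted over all FB-higher or all forelimb-higher regions of the genome. The counts therefore describe these regions and are no trait of the loci.

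**Figure D4:**
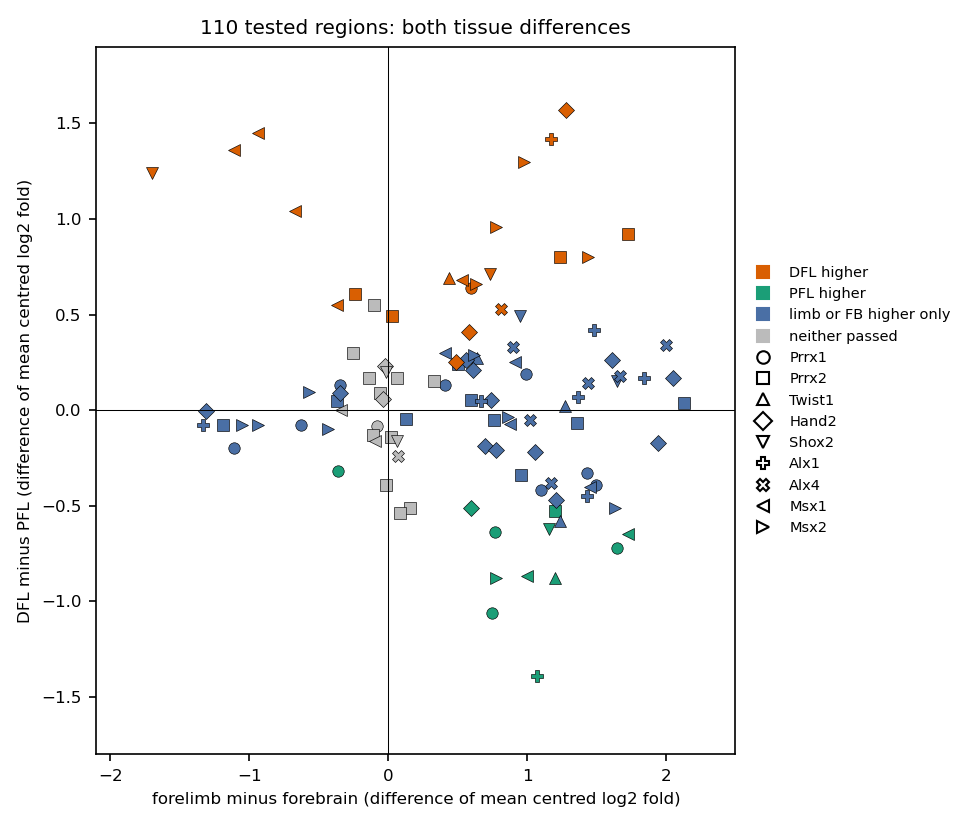
Difference of the mean centred log2 fold of forelimb minus FB (horizontal axis) and of DFL minus PFL (vertical axis) for the 110 tested regions, with a symbol for each gene and a colour for the limma call. The DFL-higher regions form a group on the right, led by Hand2 at 1.57, and another on the upper left with Msx1 and Shox2, and 11 of the 12 PFL-higher regions lie on the right.

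Whether the regions parting the limb tissues also parted the limb from FB was read from both calls. Of the 22 DFL-higher regions, 15 were also higher in the forelimb than in FB, 5 were higher in FB and 2 passed in neither direction. Of the 12 PFL-higher regions, 11 were higher in the forelimb and 1 was higher in FB. Over all tested regions, 69.2% of the DFL-higher and 77.3% of the PFL-higher regions were higher in the forelimb. Both comparisons share the forelimb libraries, so these shares are a description.

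The starts of the genes did not follow one order. Relative to FB the forelimb was higher at the starts of Twist1, Hand2 and Alx1 and lower at those of Prrx1 and Msx2. The starts of Msx1 and Shox2 did not pass. At Alx4 the region at the start, 0.2 kb upstream, was not tested, and the exonic region 0.3 kb downstream did not pass. For Prrx2, the annotated 5′ end has no region over it. The region 1.2 kb upstream had 4.66, 4.96, 2.94 and 3.15 in DFL and 5.58, 3.66, 5.96 and 6.31 in PFL and no call in FB (log2 1.2 ± 0.12, limma adjusted p = 5.19e-06), and the region over another Prrx2 transcript start 10.4 kb downstream had 4.57 ± 0.419 in DFL and 4.22 ± 0.515 in PFL, with 2.8, 4.79 and 3.69 in 3 FB libraries and no call in the 4th (log2 0.60 ± 0.13, limma adjusted p = 0.00181). That upstream region was lower in DFL than in PFL by 0.53 on the log2 scale (SE 0.14, limma adjusted p = 0.0145). The tested start regions of the other genes did not pass between DFL and PFL. A separate region 0.5 kb upstream of the Hand2 5′ end was higher in DFL than in PFL (without centring, log2 0.47, limma adjusted p = 0.00501). It was also higher in the forelimb than in FB.

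Of the regions higher in the forelimb, 39 of 71 were intergenic and 19 lay in introns, 11 overlapped a transcript start and 2 lay in exons. Of the 18 higher in FB, 10 were intergenic, 4 lay in introns and 4 overlapped a transcript start. Places were not counted over all tested regions, so these numbers are no trait of the 9 genes. Motifs were counted in 200 bp windows on the summits, on both strands. The homeodomain site TAATTA was in 10 of 110 windows (9.09%), against 9.77% of all tested regions, and the E-box CATCTG in 24 (21.8%) against 20.4%. Among FB-higher regions, TAATTA was in 5 of 18 (27.8%) near these genes and in 19.9% of all FB-higher regions, and among forelimb-higher regions in 5 of 71 (7.04%) and in 6.38%. A CATCTG within 20 bases of TAAT without overlap, as at the Alx1 region shown above, was in 7 of 71 forelimb-higher regions (9.86%) and in 6.86% of all forelimb-higher regions. CAGCTG was in 17 of 110 (15.5%) against 20.5%, CATATG in 7 (6.36%) against 4.6%, and CAATAAA, a site of HOX13 proteins, in 6 (5.45%) against 4.46%. Among FB-higher regions CATATG was in 4 of 18 (22.2%) against 4.48%. A match is a description of the letters only.

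Genotype was compared over the 3 tissues. Of the 110 regions 2 were higher in 542 and 0 were higher in wt, against 1.68% and 0.943% of all tested regions (limma). An unadjusted p under 0.05 was seen at 17 regions in either direction, for which no share over all tested regions was taken. After adjustment, only the 2 passed. The regions were a weak intronic one 21.6 kb downstream of Hand2, with 2.15 in 1 wt DFL library, 4.36 and 4.07 in 542 DFL, 2.93 in 1 542 PFL library and no other call (542 minus wt, log2 0.47 ± 0.066, limma adjusted p = 0.00992), and an intronic one of Prrx1, 4.8 kb downstream, with 2.19 and 2.01 in wt DFL and 3.92 and 3.46 in 542 DFL, 2.55 in 1 wt PFL library and no other call (log2 0.36 ± 0.074, limma adjusted p = 0.0362). Both rest on filled values in most libraries, and the calls held in 10 and 3 of 12 fits with 1 library left out. The wt DFL values of the Prrx1 region lay below the values filled in these libraries, 2.1975 and 2.326. Under the 3 other scalings the Hand2 call passed each time and the Prrx1 call passed in 1. Whether DFL minus PFL differed between genotypes was tested as an interaction, and 0 of 110 regions passed (background 0.363%, lowest adjusted p = 0.106, 14 with an unadjusted p under 0.05, limma). For the 14, too, no share over all tested regions was taken. The 542 libraries were mapped to the mutant genome and had fewer tags than wt in each tissue mean, so genotype, mapping and depth cannot be told apart.

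Within each genotype alone, forelimb exceeded FB at 62 of the 110 regions in wt and 63 in 542, or 56.4% and 57.3%, against 39.8% and 39.4% of all tested regions. FB exceeded the forelimb at 17 and 13, or 15.5% and 11.8%, against 26.2% and 25.6%. DFL exceeded PFL at 13 regions in wt and 19 in 542, or 11.8% and 17.3%, against 8.62% and 10.3%. PFL exceeded DFL at 5 and 10, or 4.55% and 9.09%, against 8.75% and 10.9% (limma, each from 2 libraries a group). The number of strong regions summed over the 9 genes was 63.3 ± 18.6 over the 6 wt libraries and 63.7 ± 18.9 over the 6 libraries of 542, where the SD is over tissues as well.

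Other genes that work with these factors were tested by their number of strong regions, from a list of 18 relatives, partners and limb signals. Of these, 8 had more in the forelimb (Twist2, Tcf4, Tbx5, Tbx2, Fgf10, Bmp2, Bmp4 and Bmp7), 2 had more in FB (Tcf3 and Shh), and 8 did not pass. Over all protein-coding genes 10.7% had more in the forelimb and 14.0% had more in FB, and the 2 of 18 in FB are near that background. Twist2, the paralogue of Twist1, had 7.5 in DFL, 7.25 in PFL and 1.5 in FB on average, and Tbx5, which starts forelimb outgrowth, had 4.5, 5.5 and 0.5 (adjusted p = 0.0145 each, exact permutation test). Among the E proteins that pair with TWIST1 and HAND2, Tcf4 was higher in the forelimb (20.5, 17.2 and 12, adjusted p = 0.0145, exact permutation test), Tcf3 was higher in FB (14, 14.2 and 18.2, adjusted p = 0.0312) and Tcf12 did not pass (10.8, 14 and 15.5, adjusted p = 0.0923). Shh, which HAND2 helps to switch on in the limb, had 1.25, 2.25 and 3.75.

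Markers of other cell types in the dissections were counted in the same way. The 5 genes of head mesenchyme and meninges (Foxc1, Foxc2, Foxd1, Col1a1 and Col1a2), a tissue that also expresses Prrx, Alx, Msx and Twist genes, had 31 to 35 strong regions in FB, 45 to 49 in DFL and 49 to 60 in PFL, 3 of 5 passed with more in the forelimb, and none was at 0 in FB. The 3 muscle genes had 9 to 13 in DFL, 14 to 20 in PFL and 17 to 21 in FB, the 3 endothelial genes 18 to 22, 18 to 24 and 20 to 22, the 3 blood genes 35 to 39, 35 to 38 and 43 to 49, and the 3 ectoderm genes 10 to 13, 7 to 14 and 14 to 15. These sums hide opposite calls. Myf5 of muscle and Kdr of endothelium passed with more in the forelimb. Pax7 of muscle, Pecam1 of endothelium, all 3 blood genes and Krt5 of ectoderm passed with more in FB. Over all genes, 10.7% and 14.0% passed in these directions. The part of these cell types in the differences at the 9 genes was not tested.

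Genes elsewhere in the genome with the most similar numbers of strong regions over the 12 libraries were listed by Pearson correlation, as a description without a test. The 12 points are libraries of 3 tissues that differ in depth, so any gene with a like difference between forelimb and FB has a high value. They were Fgfrl1 and Rnf212 for Hand2 (0.98 each), Ccdc152 and Fabp5 for Prrx1 (0.98 each), Emc4 and Dock9 for Twist1 (0.97 and 0.96), Bmpr1b, a BMP receptor, and Otud6b for Shox2 (0.96 each), Sp3 and Cetn4 for Alx4 (0.96 each), Gsk3a and Mettl24 for Alx1 (0.94 each), Pros1 and Map2k6 for Msx2 (0.95 and 0.93), Gm9747 and Tspan12 for Msx1 (0.93 each), and Nlrp6 and Trim25 for Prrx2 (0.91 and 0.86).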

How the data were processed

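ATAC-seq libraries were made by the authors from dissected cells and, per the labels and the study's methods, trimmed with Cutadapt, aligned with bowtie2 to mm10 (wt) or to a genome carrying the insertion (542), filtered, and cleared of duplicates with Picard. Peaks were called by the authors in each library alone with MACS2, without a control. The deposited fold is the ratio of tags at a summit to the local background in the same library. MACS2's −log10 p-value, as deposited, served to estimate depth, and its deposited −log10 q-value ranked the regions. The deposited score was not used. No count table was used, so no model of counts was fitted.

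A region with several deposited summits was counted once and placed by the strongest of them. Regions of 12 libraries were merged where they overlapped by at least 1 bp. The highest fold of each library was put on the log2 scale, with the library's 1st percentile of fold where it had no call, and centred by the median over regions called in all 12. Regions among the 50000 strongest of at least 2 libraries were tested with limma 3.58.1 (R 4.3.3, trend) on 6 group means, with Benjamini-Hochberg adjustment over all tested regions and a threshold of 0.05. A fold change against a tissue with no call rests on the filled value. Its SE and p then rest on the filled value too and measure no replicate spread in that tissue. Because the spread is pooled over the 6 groups, filled groups can make the SE and p of the whole comparison too small. Numbers of strong regions within 100 kb of a gene body were compared by two-sided exact permutation tests over libraries (Python 3.11.15, numpy 2.4.6, pandas 2.3.3), adjusted over all protein-coding genes. Both tests were tested on simulated data. Genes are those of GENCODE M21 and sequences those of GRCm38. Regions of 542 beyond the insertion on chromosome 2 were shifted back by 4219 bp, as estimated from wt summits, and 75.0 to 75.5 Mb of that chromosome was left out. Depth was estimated from the fold and p-values and is no read total.

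Groups follow the sample labels. The 9 genes, the gene lists and the tests were chosen with earlier results of these data known. Named were, for each gene, the region at its start, the one with the highest mean fold in the forelimb, and those with the largest difference in each direction, and other regions were chosen after their values were seen. Replicates were pools of embryos from different litters. Libraries were treated as unpaired. Over 15 pairs of groups, the correlation over regions of replicate 1 minus replicate 2 was -0.024 to 0.013. This value cannot exclude that libraries with the same number share embryos. Alternatives tried were other scalings, filled values, filters, list lengths and windows, each library left out, each genotype alone, the additional library included, and coordinates not shifted. A marker gene is not reported here.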

Additional observations from a re-analysis of the deposited data

Results flagged for a closer look

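In the additional wt DFL library, which entered no comparison, 17 of the 197 regions near the 9 genes overlapped no region of the other 12 libraries. There were 5 each at Prrx1 and Msx1, 2 at Twist1 and 1 each at Prrx2, Hand2, Alx1, Alx4 and Msx2, with a highest fold of 5.57, at Hand2. This library was the deepest, at 78.0 M estimated tags, and whether depth accounts for these calls was not tested.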

How the results depend on the processing

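The counts given above were 71 regions higher in the forelimb and 18 in FB, 22 in DFL and 12 in PFL, 2 in 542 and 0 in wt, and 0 interactions. The replicate block, a term for the replicate number, left these counts at 71, 18, 22, 12, 2, 0 and 0. Without centring, the median of forelimb minus FB over all tested regions moved from 0.104 to -0.072 and that near the 9 genes from 0.654 to 0.478. Under no centring, quantile normalization and a floor shared by all libraries (chosen after seeing the data), 63 of 71 forelimb calls and all 18 FB, 22 DFL and 12 PFL calls passed each time, and none reversed.

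Counts moved by more than 1.5 times as follows. Quantile normalization gave 2 interactions. A fold of 1 for uncalled regions gave 1 region higher in 542, 1 higher in wt and 5 interactions. Among the 37 regions called in all 12 libraries, 12 were higher in the forelimb, 6 in FB, 3 in DFL, 1 in PFL and 0 in 542, where fewer regions were tested. With no filter on the 320 regions, 233 were higher in the forelimb, 31 in PFL and 0 in 542, and with the shared floor in addition 92 were higher in the forelimb, 28 in FB, 25 in PFL and 5 in wt, with 7 interactions. The forelimb count without a filter thus rests on the floor: 233 regions were 72.8%, against 60.9% of all regions, and 92 were 28.8%, against 18.2%. The shared floor alone gave 1 in 542, 1 in wt and 1 interaction. A window of 50 kb gave 44 forelimb and 9 FB regions, and 200 kb gave 116 and 37, with 41 in DFL and 22 in PFL, as the number of regions changed. Within wt alone, 13 were higher in DFL and 5 in PFL. With the additional library, 1 was higher in 542. Coordinates of 542 left unshifted gave 7 in 542 and 6 in wt.

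Without each library in turn, 66 to 71 regions were higher in the forelimb, 15 to 19 in FB, 18 to 22 in DFL, 10 to 15 in PFL, 0 to 2 in 542 and 0 to 1 in wt. Leaving out either 542 DFL library gave 0 in 542. Of the calls, 60 of 71 forelimb, 15 of 18 FB, 15 of 22 DFL and 8 of 12 PFL calls passed in all 12 of these fits. With the 20000 strongest regions, 3 genes had more strong regions in the forelimb and Prrx1 turned to -0.25, and with all deposited regions 4 genes had more and Shox2 turned to -1.12, and the cause was not tested. Without replicate 1 or replicate 2 of every group, 0 genes passed, where the smallest p of the exact permutation test is 0.0667.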
